A study of Homo sapiens with 8 samples.

Results

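The genes described here are 35 genes of DNA replication and mitosis, chosen by name from lists of the cell division cycle among the 58202 genes listed for each cell line. Of these, 17 act in DNA replication, from MCM2 to GINS2, and 18 act in mitosis, from CCNB1 to MKI67. RNA had been sequenced in 8 established human cancer cell lines in which the receptor tyrosine kinase ERBB4 is expressed, in a study of how they respond to ibrutinib, a drug against Bruton's tyrosine kinase. The design divides the lines into 4 responsive and 4 non-responsive ones, and the labels do not say which is which, so each line is described, and lines are grouped by tissue alone. The endometrial lines were KLE, from an adenocarcinoma, and HEC59, from a carcinoma. Of the lung lines, H522 is of non-small cell, H661 of large cell and H146 of small cell cancer. The remaining lines were COV318, from an ovarian serous carcinoma, H716, from a colorectal adenocarcinoma of the cecum, and 1321N1, from an astrocytoma. All lines were kept in the medium their vendor specifies and cultured for 48 hours in plates before extraction, no drug treatment is labelled, and each gave 1 library. Levels are FPKM, fragments scaled by transcript length and library total, and differences are on the log2(FPKM + 1) scale.

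Before a cell divides it copies its genome once in S phase and parts the copies in mitosis. Origins of replication are licensed in G1 when the origin recognition complex, CDC6 and CDT1 load the MCM helicase, and cyclin E with its kinase then helps start synthesis, which draws on enzymes that make deoxynucleotides. In mitosis cyclin B with CDK1, the Aurora and polo-like kinases, the spindle checkpoint and condensin attach and separate the chromosomes. Replication genes are classically transcribed at the G1 to S transition through E2F sites, and mitotic genes in G2 and M through CCAAT boxes and the cell cycle genes homology region, or CHR.

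The promoters of 5 members show these letters, and were chosen because the levels of these genes carry the results below or differ from those of the other members. Each is the stretch from 250 bases before to 50 bases after the start of the gene in RefSeq on GRCh38.p14, 5′ to 3′ on the strand of the gene. Capitals mark only the CCAAT, CHR and E2F letters searched, which are listed below, so other forms of these sites stay in lower case. CDC6 lies at chr17:40287629-40287928 on the plus strand, MCM6 at chr2:135876394-135876693 on the minus strand and CCNE1 at chr19:29811741-29812040 on the plus strand, while the mitosis genes NCAPG at chr4:17810729-17811028 and PLK1 at chr16:23678639-23678938 both lie on the plus strand.
CDC6: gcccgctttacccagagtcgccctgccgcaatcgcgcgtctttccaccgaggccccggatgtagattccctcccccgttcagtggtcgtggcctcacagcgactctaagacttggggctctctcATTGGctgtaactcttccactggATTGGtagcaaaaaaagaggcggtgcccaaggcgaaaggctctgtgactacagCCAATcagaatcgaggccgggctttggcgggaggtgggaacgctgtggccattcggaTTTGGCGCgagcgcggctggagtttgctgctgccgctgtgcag
MCM6: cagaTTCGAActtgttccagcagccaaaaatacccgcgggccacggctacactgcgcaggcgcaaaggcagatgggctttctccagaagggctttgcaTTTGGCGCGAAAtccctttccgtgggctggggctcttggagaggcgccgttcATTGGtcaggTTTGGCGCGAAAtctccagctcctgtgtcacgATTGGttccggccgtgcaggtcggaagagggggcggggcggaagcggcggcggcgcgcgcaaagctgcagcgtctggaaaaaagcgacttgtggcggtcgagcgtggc
CCNE1: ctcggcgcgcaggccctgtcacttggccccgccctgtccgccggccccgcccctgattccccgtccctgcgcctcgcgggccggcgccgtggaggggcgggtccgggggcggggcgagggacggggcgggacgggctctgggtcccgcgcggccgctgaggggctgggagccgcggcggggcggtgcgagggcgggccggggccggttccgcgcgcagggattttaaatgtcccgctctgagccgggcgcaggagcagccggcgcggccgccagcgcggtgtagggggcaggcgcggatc
NCAPG: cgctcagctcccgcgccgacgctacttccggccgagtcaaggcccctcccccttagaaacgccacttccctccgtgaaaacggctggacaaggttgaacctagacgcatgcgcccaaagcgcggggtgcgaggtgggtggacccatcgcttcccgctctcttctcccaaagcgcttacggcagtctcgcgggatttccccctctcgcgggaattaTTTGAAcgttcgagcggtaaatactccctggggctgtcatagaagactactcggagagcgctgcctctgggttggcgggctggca
PLK1: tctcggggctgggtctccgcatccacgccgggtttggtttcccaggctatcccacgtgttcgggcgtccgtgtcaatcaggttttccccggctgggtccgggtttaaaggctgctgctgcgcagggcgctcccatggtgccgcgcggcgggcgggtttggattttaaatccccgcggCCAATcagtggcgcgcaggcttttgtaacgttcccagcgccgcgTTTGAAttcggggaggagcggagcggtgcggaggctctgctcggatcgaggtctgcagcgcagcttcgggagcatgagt
CDC6 held 3 CCAAT boxes before its start and the E2F letters TTTGGCGC 7 bases after it. MCM6 held the same E2F letters 152 and 90 bases before its start, each overlapping the reverse complement of TTTCGCGC, beside 2 CCAAT boxes and a CHR match 246 bases before it. PLK1 carried a CCAAT box 73 bases and TTTGAA, a CHR, 29 bases before its start, and NCAPG carried TTTGAA 35 bases before its start with no CCAAT. The CCNE1 window held none of the letters searched.

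The same search covered the 28 of 35 members with an entry in the RefSeq promoter table, 14 of replication and 14 of mitosis. AURKA, BIRC5, TTK, TPX2, MCM4, MCM5 and CCNE2 were not matched. The CCAAT box was searched as these letters, the CHR as TTTGAA and in its variant form as TTCGAA. For E2F the letters TTTCGCGC, TTTGGCGC and TTTCCCGC were searched. Both strands and any window listed for a gene were covered. E2F letters were in 9 of 14 replication members, 64.3%, and in 1 of 14 mitosis members, CDK1, or 7.14%, against 3.3% of all 27305 genes in the table. CHR letters were in 2 of 14 replication members, MCM6 and RRM1, or 14.3%, and in 11 of 14 mitosis members, 78.6%, against 19.5% of all genes. CCAAT was in 71.4% of the replication members and 78.6% of the mitosis members, against 39.7% of all genes. CCAAT together with CHR was in 9 of 14 mitosis members, 64.3%, against 7.85% of all genes. A match describes the letters in these windows, and no match says nothing of a site elsewhere or in other letters.

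Summed FPKM, without 3 values above 100000, lay between 376880 and 511451 per line, and 12205 to 13300 genes reached an FPKM of 1. The deposited FPKM hold no read totals, so the depth behind each value is unknown. The mitochondrial share of the summed FPKM was 16.1% in HEC59 and 6.13% in KLE, and elsewhere ran from 4.37% in 1321N1 to 13.1% in H146. Of the tissue markers, PAX8, a factor of the female reproductive tract, was at 45.7 in KLE, 184.5 in HEC59 and 72.6 in COV318. Of the other markers listed for that tract, SOX17 and EMX2 were also highest in KLE, HEC59 and COV318, but MUC16 was at 0.11 in COV318. HOXA10 was highest in H716 at 48.5, and H146 at 12.95 was above KLE at 5.30 and COV318 at 5.53. CDH17, an intestinal cadherin, was at 137 in H716, while the intestinal factor CDX1 was listed at 0 there. The lung markers were near 0 in the lung lines apart from NKX2-1 at 11.2 in H661, and in 1321N1 the astrocyte marker GFAP was at 3.10 while the other 5 glial markers lay between 0 and 0.546.

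All 35 members were expressed and passed the filter, which asked for 2 lines or more at or above 1 FPKM and left 15650 genes for testing. Most replication members had their lowest level in KLE, and HEC59 was the line most often lowest among the mitosis members. In all, 24 of 35 members had their lowest value of the 8 lines in 1 of the 2 endometrial lines, 14 of 17 replication and 10 of 18 mitosis members, against 30.7% of all genes tested. KLE was the lowest line for 14 members, 11 of replication and 3 of mitosis, against 13.5% of all genes. HEC59 was the lowest for 10 members, 3 of replication and 7 of mitosis, against 18.8% of all genes, but for 6 after quantile normalization. KLE held the highest value of no member, against 10.4% of all genes, HEC59 that of 3, against 9.94%, and COV318 that of none, against 11.5%. After HEC59, H146 was next with the lowest value of 5 members, against 23.1% of all genes. 1321N1 was the highest line for 9 members, 3 of replication and 6 of mitosis, where 16% of all genes had their highest value, but for 4 after upper-quartile scaling. H661 was highest for 8 members, 4 of each list, against 9.04% of all genes, and H146 for 6, against 11.5%. With 1 library per line, no value here has a replicate check, and neighbours in an order of lines cannot be compared with a spread. In cultures measured in bulk, fewer cells in a phase of the cycle and less RNA per cell cannot be told apart.

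**Figure D1:**
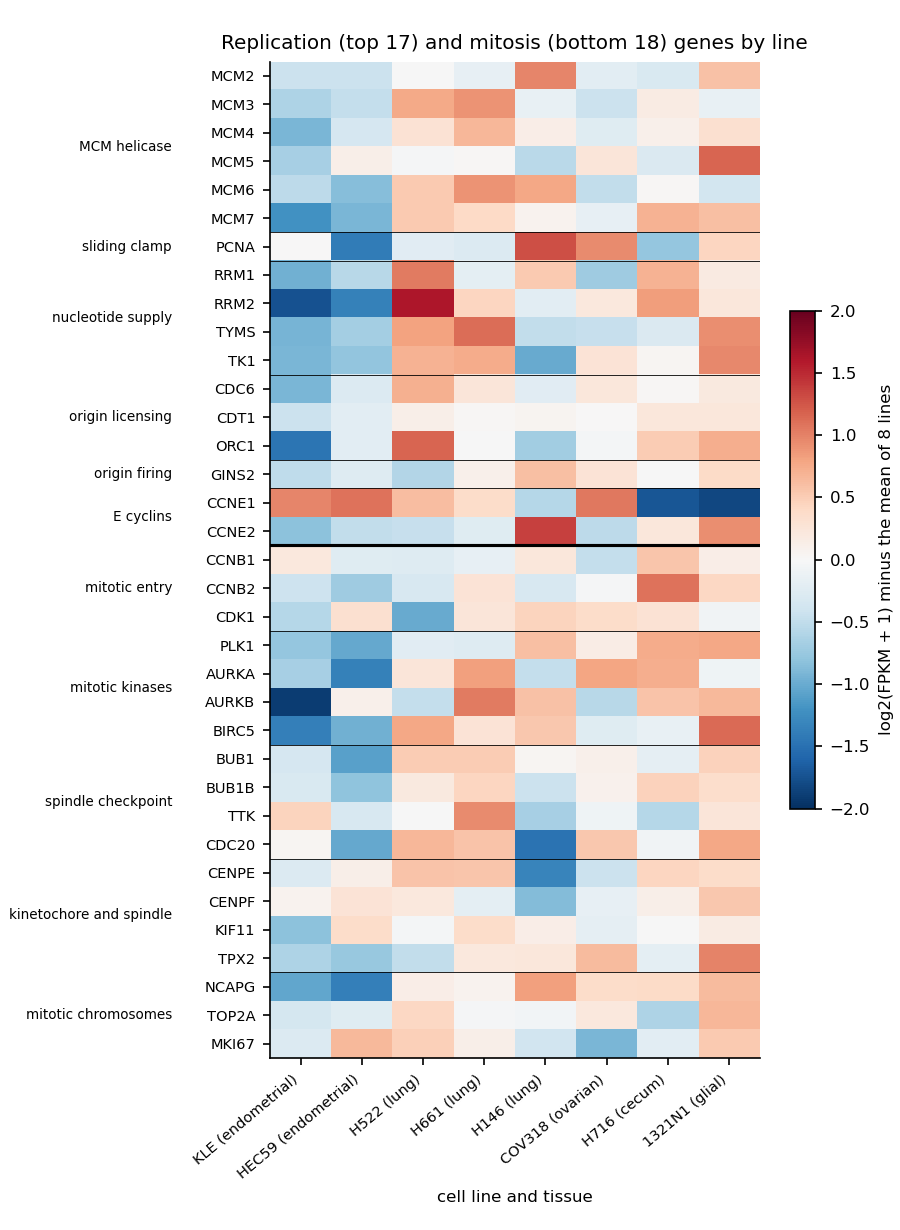
Level of each of the 35 members in each line, as log2(FPKM + 1) minus the mean of the 8 lines, with red above and blue below that mean and members grouped by role. The 2 endometrial columns on the left hold the lowest value of 24 of 35 members, and CCNE1 is among the exceptions.

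Set against each gene's mean over the 8 lines, the median replication member was at -0.82 in KLE and -0.47 in HEC59. The median mitosis member was at -0.38 in KLE and -0.52 in HEC59. The median of all genes tested was at -0.05 in KLE and -0.18 in HEC59. H522 stood highest for replication at 0.53, with mitosis at 0.17, and 1321N1 highest for mitosis at 0.49, with replication at 0.38. H661 had 0.25 for replication and 0.27 for mitosis. In COV318, H716 and H146 the replication median lay between -0.03 and 0.05 and the mitosis median between -0.01 and 0.20. All genes tested had a median of 0.07 in H522, 0.12 in 1321N1, -0.06 in H661, 0.01 in COV318, -0.09 in H716 and -0.18 in H146. The replication median minus the mitosis median was 0.36 in H522 and -0.44 in KLE, and in the other 6 lines it lay between -0.17 in H716 and 0.06 in H146. The difference in KLE depended on how it was summarised. It was -0.08 when each gene was centred on the median of the lines, and 0.11 over longer lists of 42 other replication and 44 other mitosis genes. Over the longer lists the difference was 0.33 in H522, -0.46 in 1321N1 and -0.23 in H146.

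**Figure D2:**
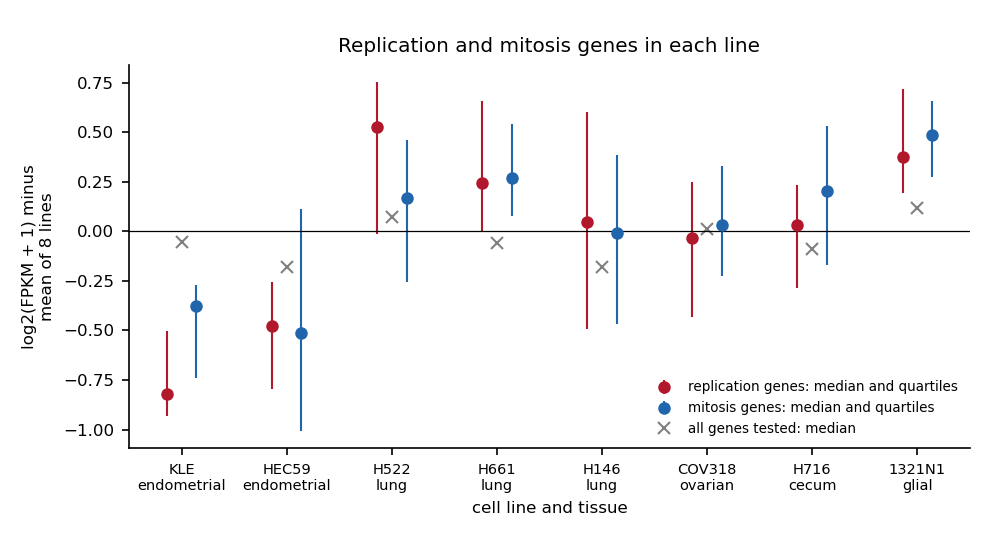
Median, with quartiles, of the replication members (red) and the mitosis members (blue) in each line on the centred log2(FPKM + 1) scale, with the median of all genes tested as a cross. KLE and HEC59 have the lowest medians of both lists, and KLE and H522 the largest gaps between these members, at -0.44 and 0.36.

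The MCM helicase, a ring of the 6 products of MCM2 to MCM7 that unwinds DNA, was lower in the endometrial lines for 5 of its 6 members without overlap with the other lines, as were 4.53% of all genes. MCM7 was at 15.1 in KLE and 18.8 in HEC59, against 38.4 in H146, 48.5 in H661 and 52.9 in H522, and 32.4 in COV318, 55.6 in 1321N1 and 59.5 in H716. The endometrial values lay below all others, a log2 difference of -1.42 (SE 0.347, adjusted p = 0.582 by limma with Benjamini-Hochberg adjustment, n = 2 and 6), which did not pass. MCM4 was at 63.1 in KLE and 94.96 in HEC59, against 101 in COV318 to 190.4 in H661, and HEC59 lay close to COV318. MCM6 was at 17.9 in HEC59 and 22.7 in KLE, followed closely by COV318 at 23.2 and 1321N1 at 25.5. MCM2, at 10.6 in HEC59 and 10.7 in KLE, and MCM3, at 25.5 in HEC59 and 23.0 in KLE, were the remaining members without overlap, but their nearest other lines stood at 11.7 and 26.3. MCM5 overlapped, at 7.44 in KLE and 13.5 in HEC59, against 8.23 in H146 to 28.98 in 1321N1.

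FPKM is scaled by length, and the subunits are set side by side on that scale as a description. How shared reads and strand were assigned is not known, and exons of MCM2 and MCM7 overlap those of other genes. MCM4 had the highest FPKM of the 6 in all 8 lines, and the lowest was MCM5 in 5 lines and MCM2 in HEC59, COV318 and 1321N1. The highest subunit exceeded the lowest by 6.67-fold in 1321N1 and by 16.04-fold in H146. Over the 8 lines the subunits correlated with a median Pearson r of 0.44, from -0.27 between MCM5 and MCM6 to 0.88 between MCM4 and MCM7. These correlations describe 8 different tumour lines with 1 library each.

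Among the enzymes of nucleotide supply RRM2 had the widest range. This regulatory small subunit of ribonucleotide reductase was at 58.0 FPKM in KLE and 76.8 in HEC59, against 170 in H146, 266 in H661 and 604 in H522, and 227 in COV318, 230.0 in 1321N1 and 353 in H716. Both endometrial lines lay below all others, with a log2 difference of -2.06 (SE 0.474, adjusted p = 0.543 by limma). Its large subunit, RRM1, varied less, at 33.0 in KLE and 44.2 in HEC59 against 39.8 in COV318 to 136 in H522, so its groups overlapped. The ratio of RRM1 to RRM2 was 0.57 in KLE and 0.58 in HEC59, and in the others it lay between 0.18 in COV318 and 0.55 in H146. TYMS, which makes thymidylate, was at 52.5 in KLE and 63.1 in HEC59, below all others, of which H146 at 71.7 and COV318 at 73.0 came nearest and H661 at 221 was highest. TK1, the thymidine salvage kinase, was at 16.3 in KLE and 17.7 in HEC59, but H146 was lower still at 15.2, against 62.6 in 1321N1.

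**Figure D3:**
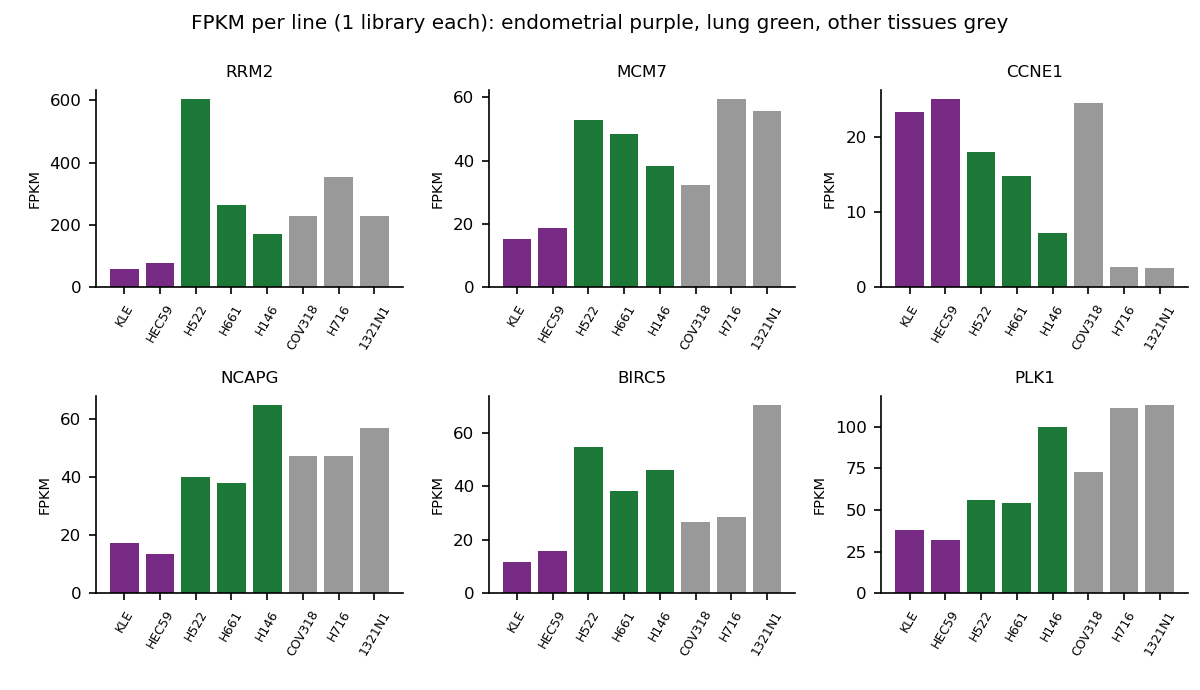
FPKM of leading members in each line, with endometrial lines in purple, lung lines in green and the others in grey. For NCAPG, MCM7, RRM2, BIRC5 and PLK1 both endometrial bars are below all the others.

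Of the licensing genes, CDC6, the ATPase that helps load MCM, was at 13.4 in KLE and 21.3 in HEC59, against 22.3 in H146 to 43.5 in H522. ORC1, the largest subunit of the origin recognition complex, was at 1.45 in KLE and 4.82 in HEC59, against 3.15 in H146 to 14.2 in H522. CDT1, which loads MCM with CDC6, varied least of the licensing genes, at 2.93 in KLE and 3.56 in HEC59 against 4.30 to 5.14 in the others. PCNA, the sliding clamp of the replicative polymerases, ordered the lines differently, with 21.8 in HEC59 but 59.7 in KLE, against 34.2 in H716, 49.1 in H661, 50.5 in H522, 80.5 in 1321N1, 116 in COV318 and 147 in H146. Its r with the mean of the other replication members was 0.18, against 0.90 for MCM4 and MCM7 and 0.88 for CDC6. GINS2, a subunit of the GINS complex that joins the active helicase, ranged from 6.02 in H522 to 15.1 in H146, with 6.47 in KLE and 7.89 in HEC59.

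The E cyclins ran against each other. CCNE1 was at 25.1 in HEC59 and 23.3 in KLE, against 24.6 in COV318, 17.96 in H522, 14.8 in H661, 7.25 in H146, 2.74 in H716 and 2.50 in 1321N1. CCNE2 was at 3.08 in HEC59 and 2.26 in KLE, against 3.0 in COV318, 3.18 in H522, 3.89 in H661, 5.76 in H716, 9.96 in 1321N1 and 13.9 in H146. The ratio of CCNE1 to CCNE2 was 10.3 in KLE and 8.14 in HEC59, was 8.19 in COV318, 5.64 in H522 and 3.8 in H661, and was below 1 in H146 and H716 and lowest in 1321N1, at 0.25. Across the 8 lines the Pearson r of the pair was -0.775 and the Spearman rho -0.833, as a description of 8 lines. CCNE1 had an r of -0.565 with the mean of the other replication members, the only negative value among the 17. The endometrial difference of CCNE1 was 1.38 (SE 0.795, adjusted p = 0.954 by limma with Benjamini-Hochberg adjustment).

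**Figure D4:**
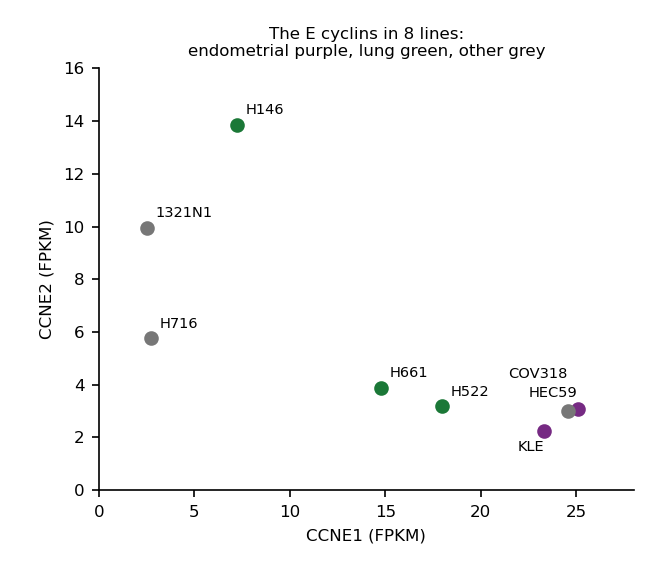
CCNE1 against CCNE2 in FPKM, 1 point per line, with endometrial lines in purple, lung lines in green and the others in grey. Lines with CCNE1 above 14 have CCNE2 below 4, and the 3 lines with CCNE1 below 8 have CCNE2 between 5.76 and 13.9.

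Among the mitosis genes, PLK1, AURKA and BIRC5 were lower in both endometrial lines than in any other line. PLK1, the polo-like kinase of mitotic entry and spindle assembly, was at 31.8 in HEC59 and 38.1 in KLE, against 54.4 in H661, 56.0 in H522 and 99.5 in H146, and 73.1 in COV318, 111 in H716 and 113 in 1321N1. AURKA, a kinase of the spindle poles, was at 27.8 in HEC59 and 45.2 in KLE, against 51.4 in H146 to 128 in H661. BIRC5, or survivin, a subunit of the chromosomal passenger complex with AURKB, was at 11.6 in KLE and 15.7 in HEC59, against 26.5 in COV318 to 70.3 in 1321N1. AURKB overlapped between groups, with 5.80 in KLE but 26.2 in HEC59, against 16.4 in COV318 to 51.2 in H661. The ratio of AURKA to AURKB was 7.80 in KLE and 1.06 in HEC59, the highest and the lowest of the 8 lines.

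NCAPG, a subunit of condensin, was at 13.6 in HEC59 and 17.2 in KLE, against 38.1 in H661, 40 in H522 and 64.9 in H146, and 47.4 in COV318, 47.5 in H716 and 57.1 in 1321N1. Both endometrial values lay well below the lowest of the others, and the log2 difference was -1.60 (SE 0.333, adjusted p = 0.437 by limma with Benjamini-Hochberg adjustment). TOP2A, the topoisomerase that untangles chromosomes, overlapped, with 179 in KLE and 192 in HEC59 against 147 in H716 to 360 in 1321N1. MKI67, which encodes the proliferation antigen Ki-67, did not follow the other mitosis members. It was highest in HEC59 at 39.0, and 20.1 in KLE, against 12.5 in COV318, 18.5 in H146, 21.0 in H716, 26.4 in H661, 34.3 in H522 and 35.3 in 1321N1, and its r with the mean of the other mitosis members was 0.04.

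The genes of mitotic entry did not separate the groups as a set. CCNB1, cyclin B1, was at 89.0 in HEC59 and 123 in KLE, against 75.4 in COV318 to 155 in H716, a log2 difference of -0.01 with an SE of 0.362. CDK1, its kinase, was at 12.3 in KLE and 23.7 in HEC59, against 8.82 in H522 to 25.8 in H146, and had an r of 0.00 with the mean of the other mitosis members. CCNB2, cyclin B2, was at 32.2 in HEC59 and 40.1 in KLE, just under 42.6 in H146 and 42.7 in H522, with 115 in H716 the highest.

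In the spindle checkpoint, BUB1 was at 26.5 in HEC59 and 45.2 in KLE, against 50.8 in H716 to 82.4 in H661, and BUB1B at 24.7 in HEC59 and 35.2 in KLE, against 32.2 in H146 to 60.6 in H716. CDC20, the activator of the anaphase-promoting complex that the checkpoint holds back, was at 25.9 in HEC59 and 55.2 in KLE, against 18.6 in H146 to 92.5 in 1321N1. TTK, or MPS1, was at 12.7 in HEC59 and 22.3 in KLE, against 9.72 in H146 to 31.8 in H661. H146, the small cell line, had the lowest CDC20 and TTK of the 8 lines, while its PLK1, at 99.5, was above that of 5 others.

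At the kinetochore and spindle, TPX2, the activator of AURKA, was at 78.0 in HEC59 and 86.3 in KLE, against 94.3 in H522 to 266 in 1321N1, without overlap. CENPF, a kinetochore protein, was at 64.8 in HEC59 and 56.3 in KLE, against 28.9 in H146 to 78.4 in 1321N1, and CENPE, a kinetochore motor, was at 13.2 in HEC59 and 9.83 in KLE, against 4.25 in H146 to 18.5 in H522. KIF11, the motor that pushes the spindle poles apart, was at 31.6 in HEC59 and 13.3 in KLE, against 21.3 in COV318 to 31.6 in H661.

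Across the table, the endometrial lines were compared with the other 6 by limma on log2(FPKM + 1), with Benjamini-Hochberg adjustment over 15650 genes and a threshold of 0.05. No member passed, and over all genes 0.00639% were called higher and 0% lower. At an unadjusted p under 0.05, 8 members were lower and 0 higher, against 2.4% and 2.42% of all genes. The 8 were NCAPG, RRM2, MCM7, BIRC5, AURKA, PLK1, BUB1 and MCM4, with limma log2 differences between -2.06 for RRM2 and -0.84 for MCM4 and adjusted p between 0.437 and 0.954. P-values measure the spread between lines from different tumours, not between repeat cultures.

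The difference was below 0 for 31 of 35 members, 16 of 17 replication and 15 of 18 mitosis members, against 57.1% of all genes, and the exceptions were CCNE1, MKI67, CENPF and TTK. Its median was -0.88 over the replication and -0.69 over the mitosis members, where that of all genes was -0.11. In 16 members, 9 of replication and 7 of mitosis, both endometrial lines lay below all 6 others, against 4.53% of all genes, and in 0 above them, against 2.43%. After quantile normalization the 16 became 9. By role, the median was -1.27 over the 4 members of the mitotic kinases with BIRC5, -1.11 over the 4 of nucleotide supply and -0.78 over the 6 MCM genes, and -0.17 over the 3 of mitotic entry. It was -0.79 over the 3 of origin licensing, -0.69 over the 4 of the spindle checkpoint and -0.39 over the 3 of mitotic chromosomes. For the 4 of kinetochore and spindle it was -0.20, and for the 2 E cyclins 0.25. PCNA alone was at -0.93 and GINS2 at -0.50. Of the 10 housekeeping genes, 8 were below 0, with a median of -0.35. Both endometrial lines lay below all others in 2 of the 10, ACTB at -1.07 and PPIA at -0.75, against 4.53% of all genes. Mitochondrial genes took a larger share in HEC59 but not in KLE. What part the housekeeping shift and the mitochondrial share had in these differences was not tested.

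**Figure D5:**
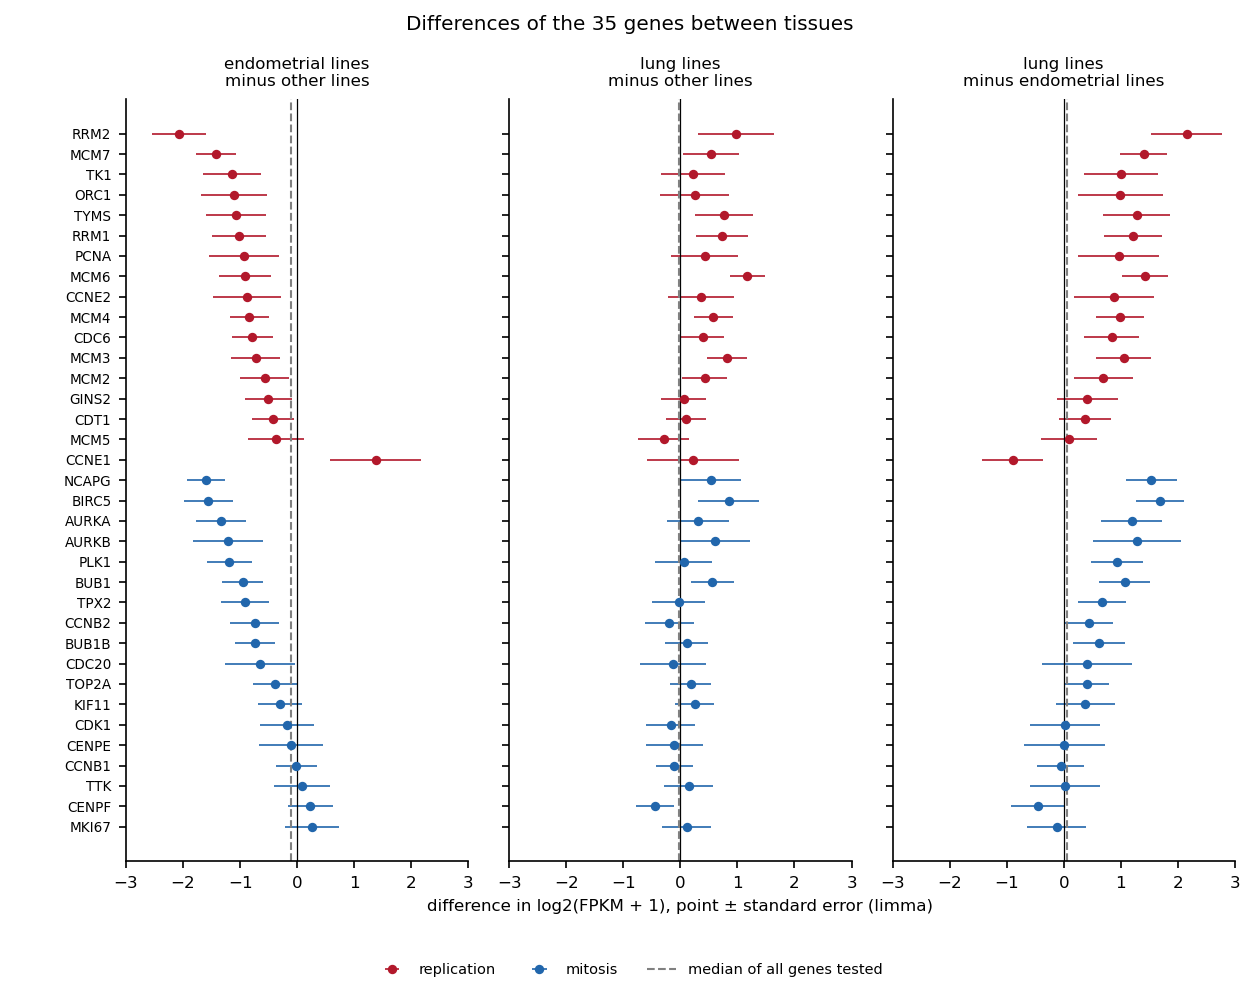
Difference in log2(FPKM + 1) of each member with its standard error for endometrial minus other lines, lung minus other lines and lung minus endometrial lines, with replication members in red and mitosis members in blue. In the first panel 31 of 35 points lie below 0, and no member passed an adjusted p of 0.05 in any panel.

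Low values of the deposited FPKM move in steps of whole reads. Only the 35 splits of the lines into 2 sets of 4 were compared by how far these steps were shared within sets. The best of them had 1 endometrial line in each set, and sets of other sizes were not tried. Within the set of KLE, H522, H661 and H716 the endometrial median was -1.22 for replication and -0.65 for mitosis. Within the set of HEC59, 1321N1, COV318 and H146 it was -0.66 and -0.63. All genes had a median of -0.07 in the set of KLE and -0.19 in that of HEC59. RRM2 was lower by 2.71 on the log2 scale in KLE than in its set and by 1.42 in HEC59. Each of these values rests on 1 endometrial line.

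Longer lists of the same pathways, which hold none of the 35, showed the same direction. Of 42 other replication genes, 35 lay below 0 in the endometrial lines, with a median of -0.50, and 10 were lower without overlap, against 57.1% and 4.53% of all genes. Of 44 other mitosis genes, 42 lay below 0, with a median of -0.71, and 14 were lower without overlap, against the same shares of all genes. No gene of either list passed an adjusted p of 0.05 in limma. The replication genes furthest from 0 were POLA1, the catalytic subunit of DNA polymerase alpha, at -1.66, GMNN, or geminin, an inhibitor of CDT1, at -1.44, and DUT at -1.43. RACGAP1, a GTPase-activating protein of cytokinesis, and CENPA, the centromeric histone, were at -1.41 and -1.38 among the mitosis genes, behind UBE2C at -3.50. The UBE2C difference rests on 0.374 FPKM in KLE, since HEC59 at 77.0 lay above H522 at 48.4 and H661 at 66.3. POLA1 overlapped too, with COV318 at 5.89 below KLE at 13.6. Both lists were chosen with earlier results of these libraries known and are no independent evidence.

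For lung against the other 5 lines no member passed by limma with Benjamini-Hochberg adjustment, where 0.0192% of all genes were called higher and 0.00639% lower. At an unadjusted p under 0.05, MCM6 and MCM3 were higher and 0 members lower, against 2.9% and 3.04% of all genes. MCM6 was at 47.9 in H522, 57.5 in H146 and 62.8 in H661, against 17.9 in HEC59, 22.7 in KLE, 23.2 in COV318, 25.5 in 1321N1 and 33.5 in H716. Its groups did not overlap, which held for no other member in either direction, against 2.07% of all genes higher and 2.23% lower, and its log2 difference was 1.18 (SE 0.305, adjusted p = 0.474 by limma with Benjamini-Hochberg adjustment, n = 3 and 5). MCM3 was at 32.3 in H146, 61.0 in H522 and 68.0 in H661, against 23.0 in KLE to 40.04 in H716, with a difference of 0.81. Of the replication members 16 of 17 had a difference above 0, with a median of 0.42, and of the mitosis members 11 of 18, with a median of 0.11, while the median of all genes was -0.02 and 51.6% of them lay below 0. The other 5 lines include KLE and HEC59, which had the lowest medians of both lists. With a line left out, the replication median lay between 0.36 and 0.67, highest without H146, and the mitosis median between -0.04 and 0.32. The mitosis median was below 0 without H661, at -0.03, and without HEC59, at -0.04, and highest without H146. Within the sets of lines that share read steps, the replication median was 0.86 for H522 and H661 and 0.21 for H146, and the mitosis median was 0.49 for H522 and H661 and -0.14 for H146. The median of all genes was 0.05 for H522 and H661 and -0.20 for H146.

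Lung and endometrial lines compared with each other share these libraries with both comparisons above. By limma with Benjamini-Hochberg adjustment no member passed, against 0% of all genes called higher and 0.00639% lower, and at an unadjusted p under 0.05 BIRC5, MCM6, RRM2, MCM7 and NCAPG were higher in lung and none lower, against 2.1% and 3.44% of all genes. In 19 members, 11 of replication and 8 of mitosis, all 3 lung lines lay above both endometrial lines, against 11.6% of all genes. CCNE1 was the only member with all lung lines below both endometrial lines, against 9.27% of all genes. The difference was below 0 for 4 of 35 members, CCNE1, CENPF, MKI67 and CCNB1, against 45.9% of all genes. Its median was 0.99 over the replication and 0.42 over the mitosis members, against 0.07 over all genes. BIRC5, at 38.2 in H661, 46.2 in H146 and 54.7 in H522, against 11.6 in KLE and 15.7 in HEC59, had a difference of 1.70 (SE 0.420, adjusted p = 0.502 by limma). RRM2 had a difference of 2.16 (SE 0.619, adjusted p = 0.621 by limma). Within the sets, H522 and H661 against KLE gave a median of 1.39 for replication, 0.57 for mitosis and 0.07 for all genes. H146 against HEC59 gave 0.47 for replication, 0.38 for mitosis and 0 for all genes.

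Over the 8 lines the replication members varied together more than the mitosis members, as a description without a test. The median r was 0.46 over 136 pairs of replication members, 0.24 over 153 pairs of mitosis members and 0.37 over 306 pairs of a replication with a mitosis member. Without KLE the first was 0.30, and with a line left out the second lay between 0.17 and 0.28. Pairs of other genes were not examined, so how usual such values are in these lines is unknown. BUB1B with an r of 0.85 followed the mean of the other mitosis members most closely, while CDK1, CCNB1, MKI67, CENPF and TTK had values of 0.00 to 0.17. BIRC5 had an r of 0.95 with the mean of the replication members, and 0.76 with that of the other mitosis members.

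Among the 11524 genes outside these lists with an SD of at least 0.5 (log2), the pattern most like the mean of the replication members was that of CDCA5, or sororin, which holds sister chromatids together, with an r of 0.97 over 8 lines. STRA13, AC087645.1, MRPS7 and TEX2 followed, with r of 0.95 to 0.97. CDCA5 was at 8.67 in HEC59 and 9.30 in KLE, against 18.9 in H716 to 33.1 in H522. The pattern most like the mean of the mitosis members was that of PSRC1, with an r of 0.97, ahead of SNX17, DCLRE1B, CD58 and NCEH1 with r of 0.93 to 0.95. With 8 lines and this many genes compared, such values only order the genes.

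The transcription factors and brakes of the cycle had mixed differences. RB1, the retinoblastoma protein that restrains E2F, was at 27.8 in KLE and 30.7 in HEC59, against 2.31 in H146 and 12.8 in H522, the lowest of the 8 lines, and 40.5 to 55.6 in the others. CDKN2A, which encodes the inhibitors p16 and p14ARF, was at 55.7 in KLE and 13.4 in HEC59, against 0.15 in 1321N1 to 118 in H522. E2F1 was at 4.56 in KLE and 2.05 in HEC59, against 1.86 in H716 to 15.5 in COV318. FOXM1, an activator of mitotic genes, was at 13.3 in KLE and 16.99 in HEC59, below all others, which lay between 21.9 in H661 and 58.3 in 1321N1, a log2 difference of -1.21 (SE 0.455, adjusted p = 0.903 by limma). MYBL2, its partner in activating G2 genes, was at 40.6 in KLE and 28.9 in HEC59, against 29.6 in 1321N1 to 91.4 in H661. TFDP1 also lay below all others, at 26.25 in HEC59 and 41.96 in KLE, but close to H522 at 42.98, with a difference of -1.43 (adjusted p = 0.954 by limma). Of the 20 transcription factors 12 lay below 0 in the endometrial comparison, with a median of -0.11, and of the 15 brakes 6 did, with a median of 0.22. Without overlap, 3 of the transcription factors were lower and 1 higher, against 4.53% and 2.43% of all genes.

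Some of these values may include reads of other genes, because the sources used here do not give how shared reads and strand were assigned. In GENCODE v29 the exons of 8 members overlap those of another gene by 100 bases or more, MCM2, MCM7, TYMS, RRM2, CCNE2, PLK1, NCAPG and BUB1B. Annotated pseudogenes are named after 9 members, PCNA, RRM2, TYMS, CCNB2, CDC20, AURKA, BUB1, NCAPG and MKI67. The levels of these members are uncertain to that extent.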

How the data were processed

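RNA sequencing had been carried out on 8 cell lines with 1 library each. The authors deposited an FPKM value per gene and line, with Ensembl identifiers and gene symbols, per the file headers. TopHat2 2.0.8, CASAVA 1.4 and SAMtools 1.0 were used with build GRCh37, per the submitters' processing notes. Which program estimated FPKM, with which annotation and strand setting, was not given in the sources used here. FPKM keeps no read totals, so depth and counting error are unknown, and low genes are less precise.

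From the deposited FPKM, log2(FPKM + 1) was computed, which understates differences of low genes. No 2 libraries held identical values. The 15650 genes at or above 1 FPKM in 2 lines or more entered limma 3.58.1 (R 4.3.3; eBayes, trend), with Benjamini-Hochberg adjustment at 0.05, for endometrial against the other lines, lung against the other lines, and lung against endometrial lines. The code was tested on simulated data. Correlations over 8 lines, counts of lines at their extreme, and promoter letters from RefSeq on GRCh38.p14 are descriptions. Other pseudocounts, filters, scalings and centrings, a term for the 2 sets defined by read steps, and leaving out each line were tried. Lines were not compared by ibrutinib response, which the labels do not assign.

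The members and lists were chosen with earlier results of these data known. Any member could be named, and of the other lists those past an adjusted p of 0.05 or, per comparison and list, among the 3 furthest from 0, together with RB1, CDKN2A, E2F1, FOXM1 and MYBL2 and the 5 genes most like each mean. No member's symbol was repeated in the files.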

Additional observations from a re-analysis of the deposited data

Results flagged for a closer look

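KIF11, the spindle motor, had its lowest level in KLE at 13.3 FPKM, and the next line, COV318, was at 21.3. The gap took 0.538 of the range of the 8 lines on the log2 scale, above Dixon's 95% critical value for 8 samples. It was the only one of 35 members so far from its neighbours. Chance gives such a gap in about 1 of 20 groups, so 1 among 35 members is not more than chance gives. The other endometrial line, HEC59, was at 31.6.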

How the results depend on the processing

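No member passed an adjusted p of 0.05 in any of the 3 comparisons under any alternative tried, and the directions of the list medians and of 11 members followed (MCM3, MCM4, MCM6, MCM7, RRM2, CCNE1, AURKA, PLK1, BIRC5, BUB1 and NCAPG) held in the comparisons where they were recomputed, apart from the lung mitosis median, which lay between -0.04 and 0.32 with a line left out. The other members were not recomputed singly. In the endometrial comparison the replication median lay between -1.04 and -0.66 and the mitosis median between -0.85 and -0.53 over all alternatives. Members lower there without overlap numbered 9 after quantile normalization and 16 to 22 with a line left out. The adjusted p of NCAPG by limma lay between 0.179 and 0.977 over the alternatives. The replication minus mitosis median in KLE was -0.19 with a pseudocount of 5, -0.0757 with centring on the median, -0.21 as a mean over members and 0.11 over the longer lists. In H716 it was 0.0698 with centring on the median and 0.0745 over the longer lists, which gave -0.46 in 1321N1 and -0.23 in H146. Over all alternatives this value stayed above 0 in H522, between 0.24 and 0.49, and took both signs in the other 7 lines. Members highest in 1321N1 numbered 4 after upper-quartile scaling and 5 after quantile normalization, and members lowest in HEC59 numbered 6 after quantile normalization. With a line left out, members lowest in HEC59 numbered 10 to 18, lowest in KLE 14 to 22 and highest in H522 5 to 8, since another line then takes the place of the one removed. The median r lay between 0.30 and 0.56 within replication and between 0.25 and 0.45 across the lists with a line left out, lowest without KLE in both. The cause of the other changes was not tested. No paired analysis was possible because the replicate numbers follow the order of the samples and pair no lines. Depth is unknown, and the 2 endometrial and 3 lung lines limit the precision of each difference.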

Other observations

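UBE2C, the ubiquitin-conjugating enzyme that works with the anaphase-promoting complex in mitosis, was at 0.374 FPKM in KLE, where the other 7 lines had 48.4 in H522 to 257 in 1321N1. HEC59, the other endometrial line, was at 77.0. UBE2C is in the longer mitosis list, and its limma difference in the endometrial comparison was -3.50 with an SE of 1.25 (adjusted p = 0.873).

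Among the brakes of the cycle, CCNG1, cyclin G1, a target of p53, was at 91.8 in KLE and 102 in HEC59, against 75.1 in COV318, 55.8 in H716, 34.1 in 1321N1, 26.9 in H146, 22.6 in H522 and 21.5 in H661. CDKN1C, which encodes the inhibitor p57, was at 5.02 in KLE and 5.61 in HEC59, against 11.2 in COV318 and 0.17 to 0.70 in the other 5 lines. CDKN2C went the other way, at 5.93 in HEC59 and 7.90 in KLE, against 8.82 in H522 to 42.75 in 1321N1. By limma the endometrial differences were 1.43 for CCNG1 (adjusted p = 0.872), 1.69 for CDKN1C and -1.48 for CDKN2C (both adjusted p = 0.954). Of the 15 brakes, 1 was higher and 1 lower without overlap, against 2.43% and 4.53% of all genes. GADD45A, a stress response gene, was at 3.82 in H661, 5.22 in H522 and 7.39 in H146, below all others, which lay between 10.3 in HEC59 and 45.2 in COV318, with a limma difference of -1.81 for lung against the other lines (SE 0.466, adjusted p = 0.473).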
